A study of Mus musculus with 6 samples.

Results

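The genes described here encode the collagens of bone and its linings, the enzymes that hydroxylate and crosslink them, the small proteoglycans and glycoproteins that bind them, and the proteases and inhibitors that turn the matrix over. Members were the rows of the array table annotated with 1 of 39 chosen symbols and no other symbol, provided that 2 or more arrays per time had measured them. This rule found 33 of the 39 genes on 54 rows, all of which had enough values, and rows of 1 gene were averaged. Of the 33 genes, 17 had a single row, 11 had 2 rows and 5 had 3 rows. Loxl1, Lum, Aspn, Spp1, Mmp3 and Mmp13 were not found under a single symbol and were not analysed here. In the whole series 16678 features were tested, 8803 of them named genes.

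Bone RNA was taken from mice of the strain C57BL/6J-Ghrhr<lit> (lit/lit), which carry a disrupted receptor for growth hormone-releasing hormone and so make little growth hormone (GH). All animals, controls included, were lit/lit and 4 weeks old, and they received GH at 4 mg per kg or phosphate-buffered saline (PBS) as 1 subcutaneous injection. Each of 6 two-colour arrays set a GH pool of 2 animals (Cy5) against a PBS pool of 2 animals (Cy3), 6 hours (replicates 1 to 3) or 24 hours (replicates 4 to 6) after the injection. The labels name bone tissue without saying which bone it was or whether marrow and muscle were removed, and in such tissue fewer cells of a type and less RNA per cell cannot be told apart. Values are log2 ratios, GH over PBS. That direction is likely from the dyes and the sample names but is not stated with the values, and no array had its dyes swapped.

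As background, fibril-forming collagens give bone its tensile framework, and type I collagen is by far the main one. Lysyl hydroxylases of the Plod family modify collagen in the endoplasmic reticulum, and lysyl oxidases (Lox, Loxl) start the crosslinks outside the cell. Small leucine-rich proteoglycans such as biglycan, decorin and fibromodulin bind fibrils and set their thickness. Matrix metalloproteinases (Mmp) and Adamts proteases cut collagens and proteoglycans, and the Timp proteins inhibit them.

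The 6 arrays were not alike. Their SDs over all rows ranged from 0.466 (replicate 1) to 0.913 (replicate 6), and each held between 18302 and 19961 values. Over the matrix genes, replicate 1 correlated with the others at r = 0.240 to 0.436 (5 pairs), and the other 10 pairs lay between 0.520 and 0.828. These coefficients are across genes and describe the profiles only. The files hold ratios and no levels, so whether a gene or a cell type marker was expressed at all could not be read from them.

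The fitted ratio was above 0 for 23 of the 33 matrix genes, highest for Plod1, and lowest for the aggrecan-cleaving protease gene Adamts5. Over both times together, which the study's design counts as 6 replicates, 14 of the 33 genes rose and 3 fell at an adjusted p under 0.05 (limma, Benjamini-Hochberg over all features), where 35.5% of all features passed (19.3% as rises and 16.2% as falls). The genes that rose were Col3a1, Col5a2, Col5a3, Col6a1, Col12a1, Plod1, Loxl2, Bgn, Fmod, Fn1, Sparc, Mmp14, Adamts1 and Timp2, and those that fell were Tnc, Adamts5 and Timp3. The median log2 ratio of the 33 genes was 0.22, against -0.0072 for all features, and 69.7% of them lay above 0, against 49.2%. The share that passed in either direction was not tested against the background. The 33 genes were chosen with earlier results of these data known. The set's medians and shares, here and below, are therefore descriptions and no test of matrix genes.

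At 24 hours alone 6 matrix genes rose (Plod1, Fmod, Col12a1, Adamts1, Col5a3 and Loxl2) and Adamts5 fell, where 20.6% of all features passed (12.0% as rises and 8.62% as falls), so that the 24-hour count of 7 of 33 was close to the share of all features. At 6 hours none of the 33 passed (11 at an unadjusted p under 0.05), where 3.62% of all features did (2.91% as rises and 0.702% as falls). The medians of the set were 0.23 at 6 hours and 0.30 at 24 hours, against -0.016 and 0.0033 for all features. Both times had 23 of the 33 genes above 0, but not the same genes. Col1a2, Plod2 and Postn lay above 0 at 6 hours only, and Col6a2, Thbs2 and Timp1 at 24 hours only. Above 0 on every array that measured them lay 12 of the 33 genes (36.4%, against 20.3% of features). Among these is Adamts1, which had no value on replicate 1. On the same count 2 genes, Timp3 and Adamts5, lay below 0 on every array (6.06%, against 15.7%).

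Without replicates 1 to 6 in turn, 18, 3, 4, 8, 14 and 11 matrix genes passed over both times. The 24-hour number was 10, 4, 3, 1, 4 and 0. The shares of all features that passed in these fits are not set beside the counts. Changes in the counts may therefore not be particular to the matrix genes. Adamts1 could not be fitted without replicate 2 or 3, which left it 1 array of 6 hours, and is missing from those counts. Plod1, Col12a1 and Adamts5 passed over both times in each of those 6 fits. When the prefix of the output file name, a label that sets replicates 4 and 6 apart, entered as a covariate, 0 of the 33 passed over both times (9 at an unadjusted p under 0.05, 8.35% of all features passed). The smallest adjusted p values were then 0.0537 for Adamts5, 0.0710 for Loxl2 and 0.0728 for Plod1. In that fit replicate 5 alone set the 24-hour ratio. Fewer features passed in general, 32 of 16678 at 24 hours. With weights for the arrays, which count a deviating array less, 18 matrix genes passed at 6 hours, where 37.4% of all features did.

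**Figure D1:**
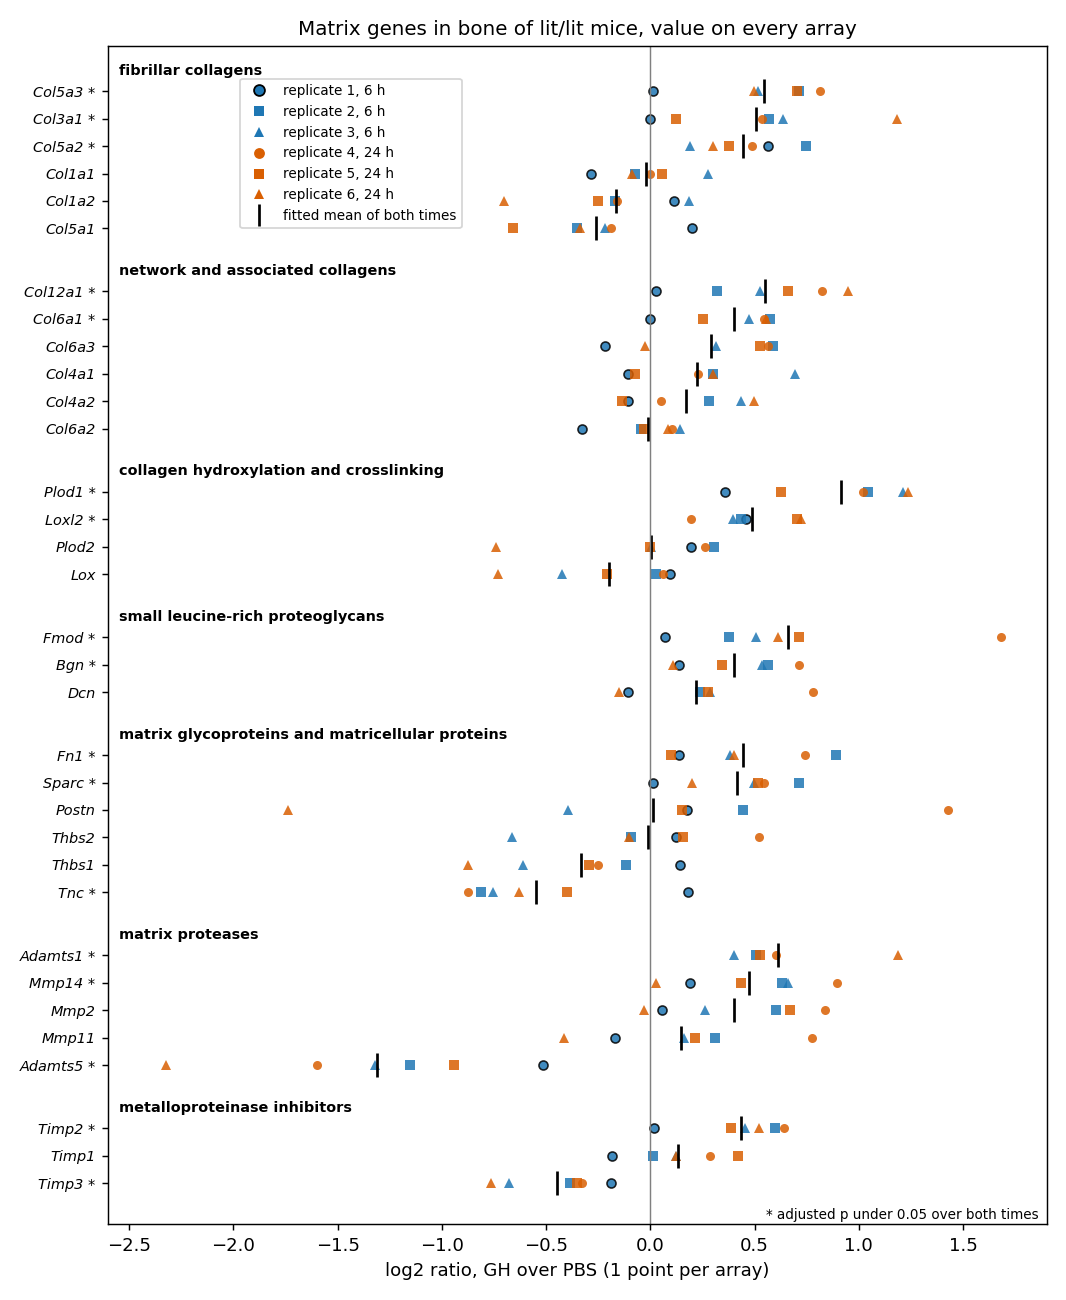
Log2 ratio of GH over PBS (horizontal axis) of each of the 33 matrix genes on each of the 6 arrays, 1 point per array, with blue for 6 hours and orange for 24 hours and a bar at the fitted mean of both times; stars mark an adjusted p under 0.05 over both times. Plod1 lies between 0.36 and 1.24 and Adamts5 between -2.32 and -0.51, while Col1a1 scatters around 0.

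Promoter sequence is shown for 6 genes that the results turn on, because Plod1, Fmod, Adamts1, Timp2 and Col6a1 rose and Timp3 fell. RefSeq (GRCm38.p6) windows were found for 22 of the 33 genes (25 windows), and 12 of the 17 genes that passed over both times had one. Each sequence holds the 250 bases before the annotated start, 5′ to 3′ on the gene's strand, and capitals mark the matches searched for on both strands. These were the AP-1 motif TGANTCA, the STAT motif (TTC and GAA with 3 bases between them), the CCAAT box CCAAT, the GC box GGGCGG and the TATA box TATAAA, none of which contains another. The positions are chr4:147936777-147937026 (minus strand), chr1:134037004-134037253 (plus), chr16:85803114-85803363 (minus), chr11:118355412-118355661 (minus), chr10:86300162-86300411 (plus) and chr10:76726045-76726294 (minus).
Plod1: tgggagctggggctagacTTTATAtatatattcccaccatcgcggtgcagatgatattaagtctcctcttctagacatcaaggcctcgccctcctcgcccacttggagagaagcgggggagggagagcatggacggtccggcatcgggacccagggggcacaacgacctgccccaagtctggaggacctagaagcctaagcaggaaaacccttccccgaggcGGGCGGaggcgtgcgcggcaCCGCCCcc
Fmod: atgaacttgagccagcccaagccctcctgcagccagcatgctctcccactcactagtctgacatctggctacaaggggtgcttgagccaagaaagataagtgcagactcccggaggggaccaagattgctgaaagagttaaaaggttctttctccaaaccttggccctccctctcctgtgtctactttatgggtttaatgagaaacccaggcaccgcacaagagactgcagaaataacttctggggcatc
Adamts1: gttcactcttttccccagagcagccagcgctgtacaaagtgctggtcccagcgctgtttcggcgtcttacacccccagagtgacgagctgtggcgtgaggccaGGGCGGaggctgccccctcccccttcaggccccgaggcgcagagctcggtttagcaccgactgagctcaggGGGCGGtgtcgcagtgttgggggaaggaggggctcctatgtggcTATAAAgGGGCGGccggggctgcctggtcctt
Timp2: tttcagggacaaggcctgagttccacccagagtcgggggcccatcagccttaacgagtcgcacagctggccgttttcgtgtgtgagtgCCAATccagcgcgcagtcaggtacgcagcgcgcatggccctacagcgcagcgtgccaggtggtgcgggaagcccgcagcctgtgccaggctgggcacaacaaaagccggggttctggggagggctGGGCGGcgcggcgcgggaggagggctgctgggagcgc
Timp3: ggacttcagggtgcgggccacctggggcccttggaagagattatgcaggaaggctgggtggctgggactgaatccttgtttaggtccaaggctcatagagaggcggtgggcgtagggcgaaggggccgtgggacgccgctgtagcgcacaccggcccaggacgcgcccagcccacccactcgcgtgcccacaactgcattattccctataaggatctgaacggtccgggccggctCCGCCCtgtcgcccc
Col6a1: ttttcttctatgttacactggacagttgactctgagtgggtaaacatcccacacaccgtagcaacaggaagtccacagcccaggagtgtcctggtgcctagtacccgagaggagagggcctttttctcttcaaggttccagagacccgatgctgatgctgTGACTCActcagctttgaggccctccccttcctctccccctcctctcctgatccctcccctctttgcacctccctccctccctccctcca

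Of the matrix gene windows, 64.0% held the GC box, against 32.7% of all 32851 windows of the same length. The TATA box was in 28.0%, against 12.4%. The overlapping windows of Tnc each count the same GC box and TATA box match. The TATA box lay at -32 in Adamts1 and -26 in Postn, and farther from the start in the other windows that held it. The CCAAT box stood in 32.0%, against 33.8%. AP-1 was found in 4.00%, which is the Col6a1 window alone (position -90 from the start), against 6.75%. The STAT motif was in 0.00% of the windows, against 7.02%. Of the 13 windows of genes that passed over both times 69.2% held the GC box, and of the 12 windows of the others 58.3% did. The Adamts1 window combined several GC boxes with a TATA box at position -32, and the Fmod window had no match to any of the 5 motifs. A match is a description of the letters only.

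Among the 6 genes of fibril-forming collagens Col3a1, Col5a2 and Col5a3 rose over both times, and the chains of type I collagen did not pass. Col1a1, which encodes the main chain of bone collagen, had ratios of -0.29, -0.07 and 0.28 at 6 hours and 0.00, 0.06 and -0.09 at 24 hours. Its fitted mean over both times was -0.02 ± 0.10 (SE, n = 6 arrays, adjusted p = 0.888), with a 95% interval of -0.25 to 0.21. Col1a2, the partner chain, had 0.12, -0.17 and 0.19 at 6 hours and -0.16, -0.25 and -0.70 at 24 hours. These are averages of 2 rows, which had opposite signs on replicates 1 and 2. The average lay below 0 on all 3 arrays of 24 hours but overlapped with 6 hours. In row 1 alone the times did not overlap (-0.04, 0.18 and 0.29, then -0.15, -0.27 and -0.64), and in row 2 they did. The difference between the times did not pass in row 1 (-0.49, adjusted p = 0.980 with each row tested alone). Col1a2 did not pass over both times (-0.16 ± 0.11, 95% interval -0.42 to 0.09, adjusted p = 0.257) or at 24 hours (-0.37, adjusted p = 0.114).

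Col5a3, a chain of type V collagen, which regulates the diameter of fibrils, had 0.01, 0.71 and 0.52 at 6 hours and 0.82, 0.70 and 0.50 at 24 hours. Only replicate 1 was near 0, and the times overlapped. Col5a3 rose at 24 hours (0.67 ± 0.16, 1.59-fold, adjusted p = 0.0351) and over both times (0.54 ± 0.11, 1.46-fold, adjusted p = 0.0154), but missed the threshold over both times without replicate 2 (0.47, adjusted p = 0.0574) or 3 (0.52, 0.0604). Its 24-hour call was lost without replicate 3, 4, 5 or 6 (adjusted p up to 0.133). On all 6 arrays it lay above Col1a1, and the difference of Col1a1 minus Col5a3 averaged -0.56 ± 0.24 (SD, n = 6, a description with no test). Col5a2, another chain of type V collagen, had 0.57, 0.75 and 0.19 at 6 hours and 0.49, 0.38 and 0.30 at 24 hours. All 6 of its values were above 0, replicate 1 included, and it rose over both times (0.44 ± 0.10, 1.36-fold, adjusted p = 0.0178; up to 0.0673 without replicate 2 or 4, where it missed).

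Col3a1, the collagen of elastic and vascular connective tissue, had 0.00, 0.57 and 0.64 at 6 hours and 0.54, 0.12 and 1.18 at 24 hours. Replicate 6 was the highest and replicates 1 and 5 were the lowest, but these 2 arrays had no value for the higher of its 2 rows, so the averages are not of the same rows on every array. The row measured on all 6 arrays ranged from 0 to 0.92 and rose alone over both times (0.43, adjusted p = 0.0441), as did the other row on 4 arrays (0.84, 0.0371). It rose over both times by a narrow margin (0.51 ± 0.16, 1.42-fold, adjusted p = 0.0495), and missed without replicate 2, 3, 4 or 6 (adjusted p up to 0.153). Col5a1, the third chain of type V collagen, went the other way at -0.26 ± 0.11 without passing (adjusted p = 0.110). Its 3 rows disagreed: they shared a sign on 0 of the 5 arrays that measured all of them, and 1 row alone passed as a fall (-0.65).

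Of 6 network and fibril-associated collagens Col12a1 and Col6a1 rose over both times. Col12a1, which encodes a collagen that lies on the surface of type I fibrils in dense connective tissue, had 0.03, 0.32 and 0.53 at 6 hours and 0.82, 0.66 and 0.95 at 24 hours. All values of 24 hours lay above all values of 6 hours. The ratio was 0.81 ± 0.14 at 24 hours (1.75-fold, adjusted p = 0.0165) and 0.55 ± 0.10 over both times (1.47-fold, adjusted p = 0.0096). The 24-hour call was lost without replicate 4 (0.80, adjusted p = 0.0650) or 6 (0.74, 0.0898).

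Col6a1, a chain of the beaded-filament collagen that surrounds cells, had 0.00, 0.58 and 0.48 at 6 hours and 0.55, 0.25 and 0.56 at 24 hours. Apart from replicate 1 every array was at or above 0.25, and the fitted mean over both times was 0.40 ± 0.11 (1.32-fold, adjusted p = 0.0303, up to 0.106 without replicate 2, 3, 4 or 6, where it missed). Its partner chain Col6a2 lay at -0.01 ± 0.09 and was below Col6a1 on all 6 arrays, with a mean difference of 0.41 ± 0.13 (SD, n = 6). Col6a3 had 0.29 ± 0.14 and did not pass (adjusted p = 0.142). The basement membrane genes Col4a1 (0.22 ± 0.12) and Col4a2 (0.17 ± 0.12), whose annotated starts are 21 bases apart on opposite strands of chromosome 8, did not pass. Their per-array difference averaged 0.05 ± 0.16 (SD, n = 6).

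Plod1, the lysyl hydroxylase that acts on the helical part of procollagen, had the largest rise of the set over both times. Its ratios were 0.36, 1.04 and 1.21 at 6 hours and 1.02, 0.62 and 1.24 at 24 hours. Replicate 1 was again the lowest, and the times overlapped. The fitted ratio was 0.87 ± 0.20 at 6 hours (1.83-fold, adjusted p = 0.0663), 0.96 ± 0.20 at 24 hours (1.95-fold, 0.0254) and 0.92 ± 0.14 over both times (1.89-fold, 0.0071). The 24-hour call was lost without replicate 4 (0.93, adjusted p = 0.0984) or 6 (0.82, 0.127). All 3 rows of Plod1 rose when tested alone over both times (0.66, 1.25 and 0.84) and were above 0 on all 6 arrays. The highest row also passed at 6 hours, at 1.10 (adjusted p = 0.0448), where 3.38% of all rows tested alone passed. The GC boxes of its promoter window lie close to the start.

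The related hydroxylase gene Plod2, which acts on the telopeptides, lay at 0.0033 ± 0.14 over both times and ranged from -0.74 (replicate 6) to 0.30 (replicate 2). It was below Plod1 on all 6 arrays, with a mean difference of 0.91 ± 0.62 (SD, n = 6). Loxl2, a lysyl oxidase active on collagen IV, had 0.46, 0.43 and 0.40 at 6 hours and 0.20, 0.70 and 0.72 at 24 hours. Every array was above 0. Replicate 5 had no value for 1 of the 3 rows. Its 0.70 averages the other rows (1.22 and 0.19), so the averages are not of the same rows on every array. Loxl2 rose over both times (0.49 ± 0.10, 1.40-fold, adjusted p = 0.0140) and at 24 hours (0.54, adjusted p = 0.0405). The call over both times was lost without replicate 2 (0.48, adjusted p = 0.0540) or 3 (0.49, 0.0506), and the 24-hour call without replicate 2, 3, 5 or 6 (up to 0.179). The rise rested on 1 of its 3 rows (0.97 alone), since the others had 0.17 and 0.22 and did not pass. Lox itself, the main collagen crosslinker of the family, had -0.20 ± 0.13 (adjusted p = 0.272).

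All 3 measured small leucine-rich proteoglycan genes lay above 0, and Fmod and Bgn rose over both times. Fmod encodes fibromodulin, which binds collagen fibrils and sites of lysyl oxidase action. Its ratios were 0.07, 0.38 and 0.51 at 6 hours and 1.68, 0.71 and 0.61 at 24 hours, so that all values of 24 hours lay above those of 6 hours and replicate 4 stood far above the rest. Fmod rose at 24 hours (1.00 ± 0.23, 2.01-fold, adjusted p = 0.0297) and over both times (0.66 ± 0.16, 1.58-fold, 0.0228). Without replicate 4 the 24-hour ratio was 0.66 (adjusted p = 0.0785), and it also missed without replicate 2, 3 or 6 (up to 0.0835). Over both times Fmod missed without replicate 2 (0.65, adjusted p = 0.0760) or 3 (0.61, 0.0840).

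Bgn, the gene of biglycan, an abundant proteoglycan of bone, had 0.14, 0.57 and 0.54 at 6 hours and 0.71, 0.34 and 0.11 at 24 hours. Its values overlapped fully between the times, and it rose over both times (0.40 ± 0.11, 1.32-fold, adjusted p = 0.0353, up to 0.117 without replicate 2, 3, 4 or 5, where it missed). Dcn, the gene of decorin, which shares the protein family with biglycan, had 0.22 ± 0.14 with a range of -0.15 to 0.78 and did not pass (adjusted p = 0.238).

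The 6 measured glycoprotein and matricellular genes went in different directions, with 2 rises, 1 fall and a median of 0 over both times. Fn1, the gene of fibronectin, on which collagen fibrils assemble, had 0.14, 0.89 and 0.38 at 6 hours and 0.74, 0.10 and 0.40 at 24 hours. All arrays were above 0 and the times overlapped. Fn1 rose over both times (0.44 ± 0.13, 1.36-fold, adjusted p = 0.0437, up to 0.128 without replicate 2, 3, 4 or 6, where it missed), but its 3 rows gave 1.07, 0.01 and 0.24, and the highest row alone passed. With the median in place of the mean of its rows Fn1 had 0.34 (adjusted p = 0.0898). Sparc, which encodes osteonectin, a calcium- and collagen-binding protein of bone, had 0.01, 0.71 and 0.50 at 6 hours and 0.55, 0.52 and 0.20 at 24 hours. Replicates 1 and 6 were the lowest, and Sparc rose over both times (0.41 ± 0.12, 1.33-fold, adjusted p = 0.0350). It missed when any of replicates 2 to 6 was left out (adjusted p up to 0.114).

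Tnc, the gene of tenascin-C, a glycoprotein of developing and injured connective tissue, had 0.18, -0.81 and -0.76 at 6 hours and -0.88, -0.40 and -0.63 at 24 hours. Replicate 1 alone was above 0. The fitted mean over both times was -0.55 ± 0.15 (1.46-fold lower, adjusted p = 0.0355), and it missed without replicate 2, 3, 4 or 6 (adjusted p up to 0.118) and with the arrays scaled to an equal spread (-0.51, 0.0535). Its 2 rows lay on opposite sides of 0, at 0.14 and -1.23, so the fall belongs to 1 of them. Thbs1, the gene of thrombospondin-1, had -0.33 ± 0.14 (adjusted p = 0.0990) and was below 0 on 5 of 6 arrays. Thbs2 (-0.01) and Postn (0.01) did not pass. Postn, which encodes periostin of the bone surface, had the widest range of the set, from -1.74 on replicate 6 to 1.43 on replicate 4, both at 24 hours.

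Of 5 measured protease genes Adamts1 and Mmp14 rose and Adamts5 fell. Adamts5, the main aggrecan-cleaving protease of mouse cartilage, had -0.51, -1.15 and -1.32 at 6 hours and -1.60, -0.94 and -2.32 at 24 hours. It was below 0 on every array, least on replicate 1 and most on replicate 6, and the times overlapped. Its ratio was -0.996 ± 0.278 at 6 hours (adjusted p = 0.0935), -1.62 ± 0.28 at 24 hours (3.08-fold lower, 0.0170) and -1.31 ± 0.20 over both times (2.48-fold lower, 0.0065). The 24-hour call was lost without replicate 4 (-1.63, adjusted p = 0.0657) or 6 (-1.27, 0.0768).

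Adamts1, another protease that cuts aggrecan and versican, lay on the other side of 0. It had no value on replicate 1, and its ratios were 0.51 and 0.40 at 6 hours and 0.60, 0.53 and 1.19 at 24 hours. All values of 24 hours lay above those of 6 hours, replicate 6 the farthest. Adamts1 rose at 24 hours (0.77 ± 0.17, 1.71-fold, adjusted p = 0.0336) and over both times (0.61 ± 0.13, n = 5 arrays, 1.53-fold, 0.0212), the former not without replicate 4, 5 or 6 (adjusted p up to 0.118). On the 5 shared arrays Adamts1 lay above Adamts5 each time, by 2.11 ± 0.83 (SD, n = 5).

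Mmp14, the membrane-bound collagenase that activates Mmp2, had 0.19, 0.63 and 0.66 at 6 hours and 0.90, 0.43 and 0.03 at 24 hours. It was above 0 on all 6 arrays, near 0 on replicate 6, and rose over both times (0.47 ± 0.14, 1.39-fold, adjusted p = 0.0371, up to 0.120 without replicate 2, 3, 4 or 5, where it missed). Its substrate gene Mmp2 had a similar mean of 0.40 ± 0.14 and did not pass (adjusted p = 0.0660). Mmp11 had 0.15 ± 0.16 (adjusted p = 0.50) and was above 0 on 4 of 6 arrays.

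The 3 inhibitor genes differed among themselves. Timp2, whose protein takes part in the activation of Mmp2 by Mmp14, had 0.02, 0.60 and 0.45 at 6 hours and 0.64, 0.39 and 0.52 at 24 hours. Replicate 1 was near 0 and the others lay between 0.39 and 0.64. It rose over both times (0.44 ± 0.10, 1.35-fold, adjusted p = 0.0211, up to 0.0782 without replicate 2, 3, 4 or 6, where it missed). All 3 of its rows rose alone (0.48, 0.33 and 0.50). Timp3, the inhibitor that binds to the matrix and also acts on Adamts proteases, had -0.19, -0.38 and -0.68 at 6 hours and -0.33, -0.35 and -0.76 at 24 hours.

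All 6 Timp3 values were below 0 and the times overlapped. Timp3 fell over both times (-0.45 ± 0.11, 1.36-fold lower, adjusted p = 0.0213, up to 0.0742 without replicate 2, 3 or 6, where it missed), with rows at -0.28 and -0.62, of which the lower one passed alone. Timp2 lay above Timp3 on all 6 arrays, by 0.89 ± 0.38 (SD, n = 6). In their promoter windows both genes have a GC box near the start and Timp2 a CCAAT box farther out. Timp1 had 0.13 ± 0.09 and did not pass (adjusted p = 0.264).

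The difference between 24 and 6 hours passed for 0 of the 33 genes, as for 0.00% of all features (limma, 1 gene at an unadjusted p under 0.05, Col12a1). For Col12a1 the difference was 0.52 ± 0.19 (adjusted p = 0.982) and for Fmod 0.69 ± 0.32 (0.982). The widest 95% interval among the genes that passed over both times was that of Adamts5, -0.63 with -1.57 to 0.32, so that sizeable differences between the times could not be seen. In Col12a1, Fmod and Adamts1 all values of 24 hours exceeded all values of 6 hours (9.09% of the genes, against 5.19% of features). For the remaining genes that passed, the values of the times overlapped.

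**Figure D2:**
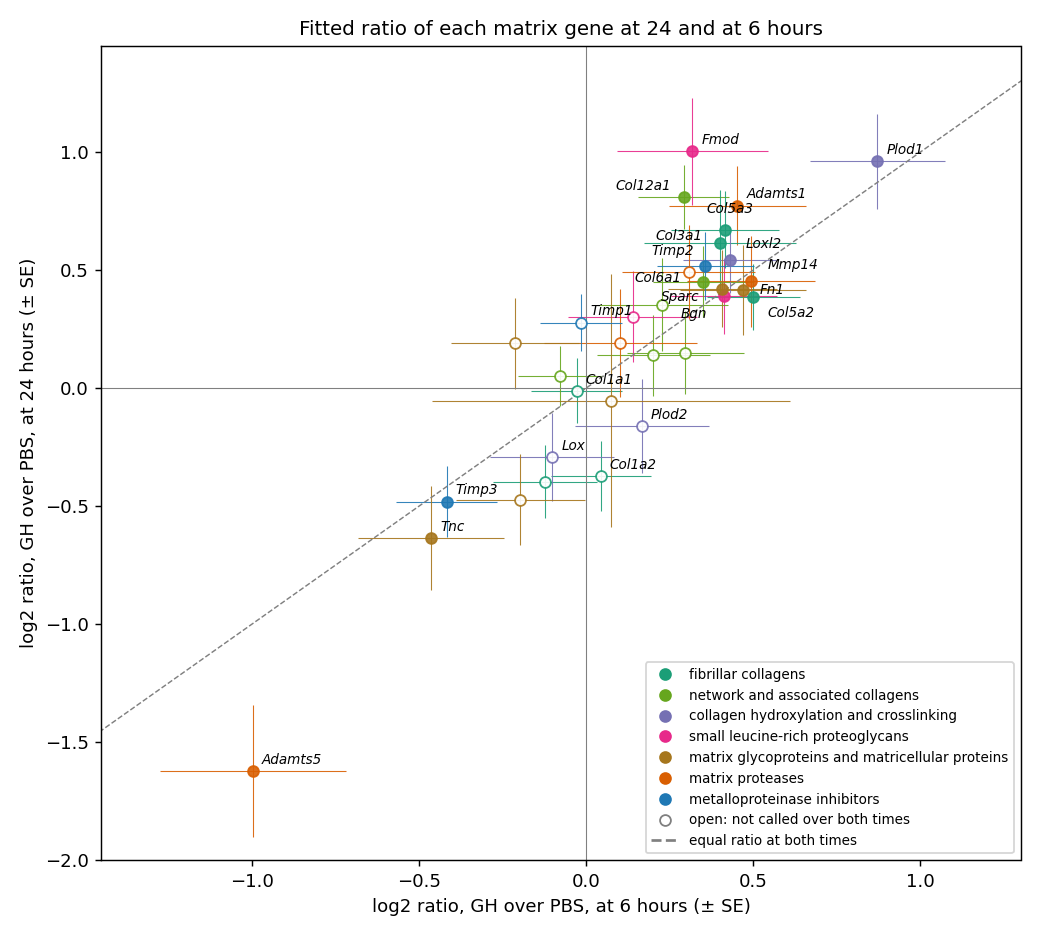
Fitted log2 ratio of GH over PBS at 24 hours (vertical axis) against that at 6 hours (horizontal axis) for the 33 matrix genes, with SE bars, colours for the groups and filled points for genes that passed over both times. Fmod (1.00 against 0.32) and Col12a1 (0.81 against 0.29) lie above the line of equal ratios and Adamts5 below it (-1.62 against -0.996), but no difference between the times passed.

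Rows that carry the same gene name often disagreed, which bears on each averaged value. Of the 16 genes with more than 1 row, Plod1, Timp2 and Col3a1 were the ones in which every row rose when tested alone over both times. In Fn1, Loxl2, Timp3, Tnc and Col5a1 a single row passed. The rows of Tnc, Plod2, Thbs2 and Col5a1 had fitted means on opposite sides of 0. The gap between the highest and the lowest row was 1.37 in Tnc, 1.06 in Fn1 and 0.80 in Loxl2, against 0.17 in Timp2. With every row tested alone, 18 genes had a row that passed over both times (14 with a rise, 4 with a fall), where 35.5% of all rows passed. The count takes a gene if any of its rows passed, while the share is of single rows. They are therefore not directly comparable.

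**Figure D3:**
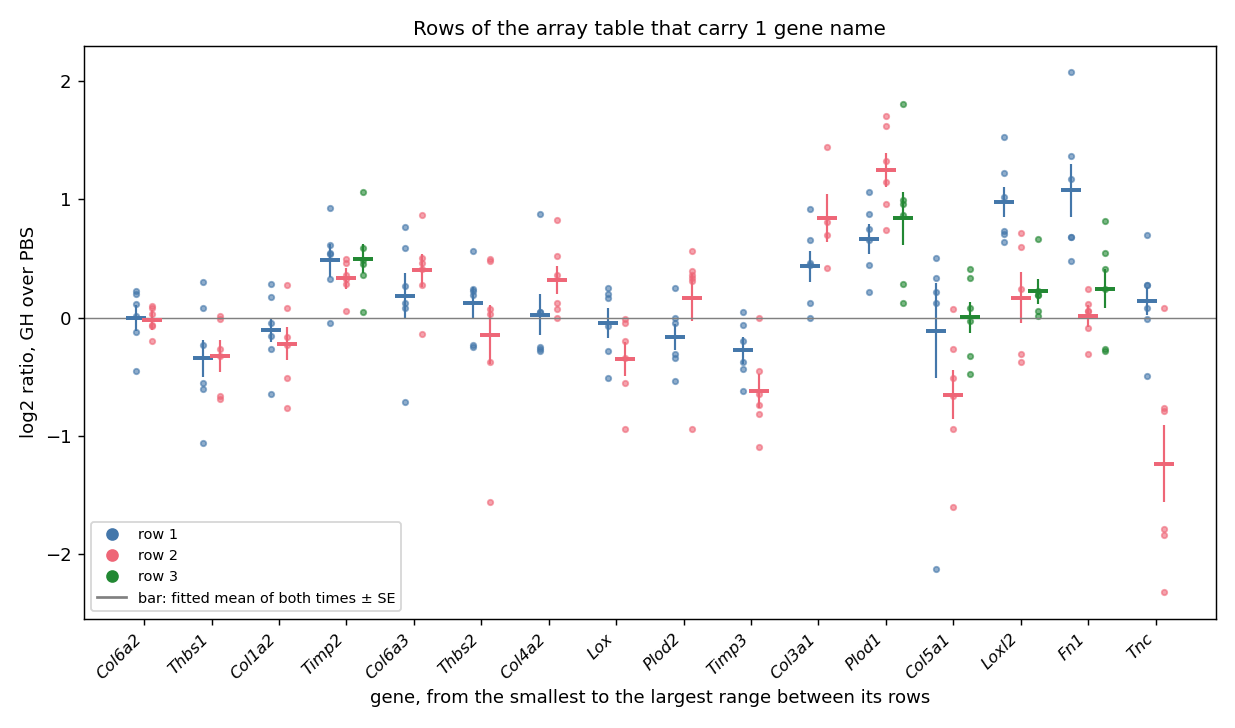
Log2 ratio of GH over PBS (vertical axis) for the 16 matrix genes with 2 or 3 rows, ordered by the gap between their rows, with 1 point per array and a bar with SE at each row's fitted mean of both times. The rows of Plod1 and Timp2 lie together above 0, while those of Tnc (0.14 and -1.23) and Fn1 (1.07, 0.01 and 0.24) lie apart.

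Other genes of the matrix were taken from lists of 174 symbols, of which 97 were measured. Among 10 of 27 other collagens 3 rose and 2 fell over both times. The cartilage collagen gene Col9a3 (0.87 ± 0.13), the basement membrane gene Col4a5 (0.71 ± 0.15) and Col14a1 (0.33 ± 0.08), which sits on fibrils as Col12a1 does, rose, and Col2a1, the main collagen of cartilage, fell by 0.67 ± 0.15. Among 16 of 26 procollagen processing and other crosslinking genes 5 rose and 1 fell. P3h3, a member of the prolyl hydroxylase family, had 0.70 ± 0.11, the collagen chaperone gene Serpinh1 0.63 ± 0.12, the lysyl oxidase gene Loxl4 0.79 ± 0.17 and Pcolce, an enhancer of procollagen cleavage, 0.72 ± 0.16. These shares, as those of the next lists, stand beside 35.5% of all features.

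Among 31 of 55 other proteoglycans and glycoproteins 5 rose and 1 fell over both times. The basement membrane gene Nid1 (0.58 ± 0.09), the matrilin gene Matn2 (0.54 ± 0.11) and the fibrillin gene Fbn2 (1.15 ± 0.22, n = 5 arrays) rose, and Hapln1, which links aggrecan to hyaluronan, fell by 0.95 ± 0.17. Among 22 of 41 other proteases and inhibitors 3 rose and 2 fell, with Adamts10 at 0.36 ± 0.07, Adamts7 at 0.44 ± 0.12, Mmp1a at -0.35 ± 0.09 and Adamts17 at -1.002 ± 0.131. Among 18 of 25 integrins and collagen receptors 5 rose and 1 fell. The collagen receptor subunit gene Itga1 had 1.04 ± 0.14, the laminin receptor subunit gene Itga6 1.12 ± 0.14 (n = 4 arrays), Sdc3 0.39 ± 0.07 and Itgb5 0.39 ± 0.09. The medians of the 5 lists lay between -0.04 and 0.22, against 0.22 for the 33 genes.

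Markers of other cell types in the same pools are given beside the matrix genes. The skeletal muscle markers (10 of 21 measured) had means of 0.16, 0.46, 0.92, 0.73, 0.0032 and 0.14 on replicates 1 to 6, with 9 of 10 above 0, 3 rises and 1 fall over both times. The neutrophil markers (8 of 19) had 0.06, -0.56, -0.94, -1.52, -0.60 and -0.84, with 0 of 8 above 0 and 4 falls. The 4 measured osteoblast and osteocyte markers of 14 (Dlx5, Ibsp, Pth1r and Phex) had means between -0.36 and 0.04 per array. Over both times 0 of 4 lay above 0 (median -0.17), and none passed. Of 3 chondrocyte markers of 16, all among the genes named above, Col9a3 rose and Hapln1 and Col2a1 fell. The endothelial markers (7 of 12) stayed between -0.10 and 0.12 per array, with 1 rise and 1 fall. The osteoclast markers (6 of 13) had means between -0.08 and 0.36 per array. Over both times 4 of the 6 lay above 0, and 1 rose, Calcr (0.97 ± 0.18, adjusted p = 0.0106). The erythroid (5 of 14) and B lineage markers (6 of 12) each had 1 rise and no fall, and neither of the 2 measured adipocyte markers (of 11) passed.

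The matrix genes had medians of 0.04, 0.32, 0.29, 0.54, 0.21 and 0.08 on replicates 1 to 6. Replicate 4, with the highest median, also had the lowest neutrophil mean and a high muscle mean, and replicate 1 lay between 0.04 and 0.16 in all 3. Replicate 3 had the highest muscle mean (0.92) and a neutrophil mean of -0.94, beside a matrix median of 0.29. Replicate 6 had a neutrophil mean of -0.84 beside a matrix median of 0.08. Whether the share of muscle, marrow or matrix-forming cells in the pools had a part in the ratios was not tested.

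**Figure D4:**
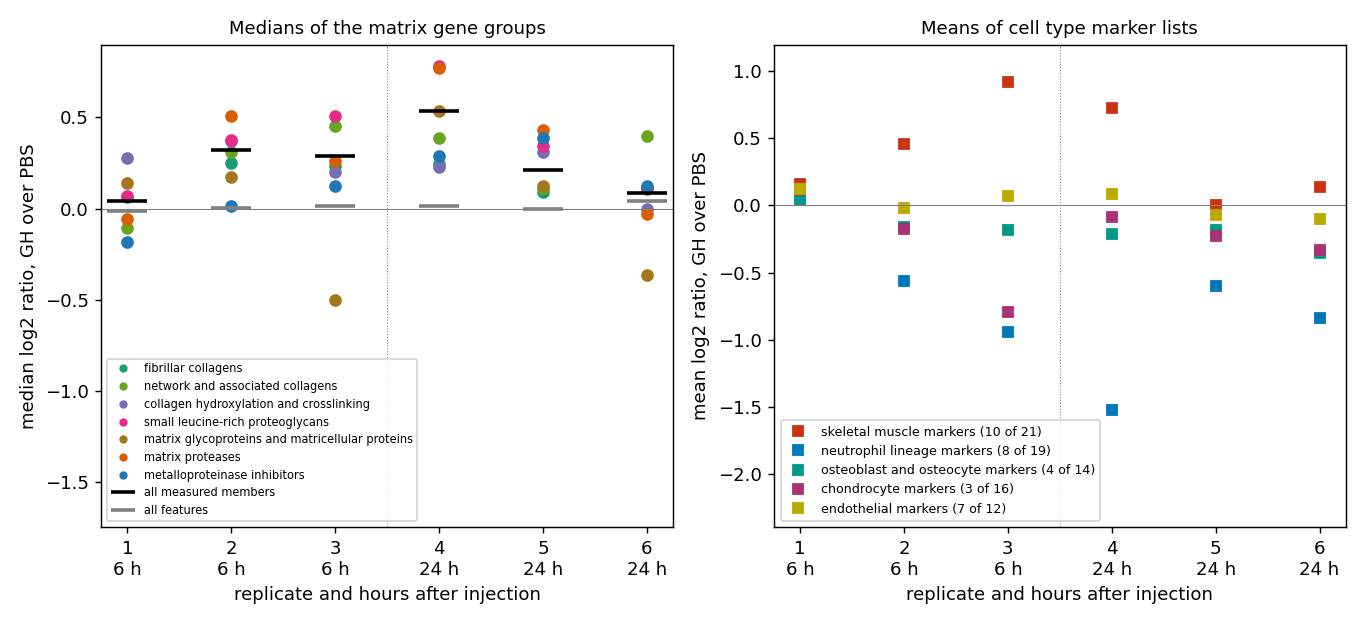
Left, median log2 ratio of GH over PBS of each group of matrix genes, of all 33 and of all features on each array; right, mean log2 ratio of 5 lists of cell type markers, with the number measured of those listed. The median of the 33 genes is highest on replicate 4 (0.54) and lowest on replicate 1 (0.04), and the neutrophil mean is lowest on replicate 4 (-1.52). Replicate 6 has a neutrophil mean of -0.84 and a median of 0.08 for the 33 genes.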

How the data were processed

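Bone RNA pools of GH- and PBS-injected lit/lit mice were compared on 6 two-colour arrays, each with pools of separate animals per the design text. The authors deposited log2 ratios per array row. The values went through background and normalization steps not given in the sources used here, and the direction of the ratio is not stated either. It is taken as Cy5 over Cy3. All values (100%) were log2 of a ratio with 2 decimals, within a tolerance of 0.0001, and no intensities were used, so signal over background and levels are unknown.

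Rows with 1 gene symbol were averaged per gene, unnamed rows were kept singly, and features needed 2 values per time. limma 3.58.1 in R 4.3.3 fitted 1 mean per time over all 6 arrays, so both times shared a spread (prior 2.51 degrees of freedom, prior SD 0.28), with two-sided tests and Benjamini-Hochberg adjustment over 16678 features. Unless another test is named, each adjusted p comes from this fit, and each value after ± is its SE. In simulated data the 6-hour test found 0% of features given a log2 change of 0.5 and 24.2% of those given 1. The 24-hour test found 1.49% and 47.8%, the test over both times 23.5% and 57.6%, and the test of 24 minus 6 hours 0% of either. Each rate rests on 33 to 67 changed features, and only a small part of the 16678 features was changed. The simulated noise was normal and independent, and each feature had the same SD on every array. The arrays of the data differed in spread. In the data 35.5% of features passed over both times. The adjustment depends on how many features change, so these rates do not give the power of the tests on the data. Having 6 arrays limits the precision.

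Genes that passed in any comparison, Col1a1 and Col1a2 are given on every array, and up to 4 genes with the smallest p from each wider list. Members and lists were chosen with earlier results of these data known. Alternatives were other scalings, row rules, filters, variance settings, array weights, the file prefix as a covariate, single-time fits and leaving out each array.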

Additional observations from a re-analysis of the deposited data

How the results depend on the processing

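Of the counts of matrix genes that passed, the 6-hour count of 0 became 2 with each array scaled to 1 median absolute deviation. There 10.6% of all features passed. It became 2 with quantile normalization (11.9% of all features). With each row tested alone it became 1, Plod1, counting any row of a gene (3.38% of all rows). The 6-hour count was 18 with array weights and 0 to 2 when 1 array was left out. The 24-hour count of 7 became 0 with the file prefix as a covariate, 4 with each time fitted alone and 0 (without replicate 6) to 10 (without replicate 1) when 1 array was left out. The count of 17 over both times became 0 with the prefix and 3 (without replicate 2) to 18 (without replicate 1) when 1 array was left out. The cause was not tested. For the fits with 1 array left out or each time fitted alone, the shares of all features are not set beside these counts. The difference between the times gave 0 calls under each alternative run. Under every other alternative run the counts stayed within 1.5 times. Of 385 alternative values of single genes that had passed, 285 stayed past the threshold (81 of 116 at 24 hours and 204 of 269 over both times) and 100 missed it, 24 of them with the prefix, and none changed direction. No paired analysis was possible because the 6-hour and 24-hour arrays carry different replicate numbers. Depth and signal over background cannot be judged from ratios.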

Other observations

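A further row of the array carried the symbols Gmppa and Plod1 together and was left out of the averages, since it may measure either gene. Its log2 ratios were 0.08, 0.48 and 0.59 at 6 hours and 0.38, -0.09 and 0.06 at 24 hours, lower than the Plod1 mean on every array.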
